A study of Mus musculus with 21 samples.

Results

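The immediate early genes described here are 10 named genes, Fos, Fosb, Jun, Junb, Egr1, Atf3, Ier2, Nr4a1, Dusp1 and Myc, out of 46517 Ensembl genes in the deposited count table of a mouse heart series. They were taken by symbol, all 10 were found, and 9 passed the expression filter of the test. RNA was measured by bulk RNA-sequencing of hearts from 4 control mice (Notch3 +/+) and 3 Notch3-/- mice. The mice were of the C57BL/6J strain, aged 10 to 14 months and without a stated treatment. The knockout is constitutive, carries lacZ inserted in the Notch3 locus, and is not restricted to a cell type. The sex of the mice is not given. The paper names left ventricle, frozen directly after removal, for its qPCR RNA, and hearts for its sequencing. Each mouse gave 3 technical libraries, and their counts were added up to make 1 replicate of a mouse. Control mice (1 to 4 in order) had sums of 3091461, 4638786, 4208205 and 3046326 counts, and Notch3-/- mice (1 to 3 in order) had 3828763, 5167869 and 5086740.

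Immediate early genes are transcribed within minutes of a stimulus without the need for new protein synthesis. In the heart they respond to stretch, adrenergic signals, ischemia and the handling of tissue, mainly through MAP kinase and cyclic AMP pathways acting on factors that already sit at their promoters. Many of their transcripts are short-lived, so their level reflects a brief window before the tissue was frozen. Most of them encode transcription factors, and Dusp1 encodes a phosphatase that switches MAP kinases off.

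Values are given as CPM, the usual library-scaled counts, computed with TMM factors that correct for differences in library composition. The targeted gene, Notch3, was at 57.3, 42.1, 57.6 and 61.8 CPM in control hearts, in order of mouse number, and at 6.01, 7.57 and 4.73 CPM in Notch3-/- hearts. Between genotypes it differed by a log2 fold change of -3.16 (SE 0.23, edgeR FDR 0.00173 by Benjamini-Hochberg), and it was low in each mouse labelled as a knockout. The tissue was checked for heart muscle with marker genes. The 10 ventricular cardiomyocyte markers summed to between 21228 and 32483 CPM in each mouse, and Ttn, the giant sarcomere protein, was the most abundant of them. No atrial gene was set beside them, so this sum shows heart muscle and does not tell the chamber. The 18 hepatocyte markers summed to 57.3, 172, 12.9 and 27.4 CPM in control mice and to 7331, 13319 and 160 CPM in Notch3-/- mice 1 to 3, so this liver signal was high in Notch3-/- mice 1 and 2. All 17 hepatocyte markers tested were higher in Notch3-/- hearts at an unadjusted p under 0.05 from edgeR, against 7.34% of all genes. None was called (edgeR FDR 0.118 to 0.154), and 10 of the 17 were higher without overlap, against 4.57% of all genes. Some, such as Tat and Hpd, passed the expression filter only through the Notch3-/- mice. These counts are thus partly fixed by the filter and are not read as a result. Alb was the most abundant at 1705, 1875 and 66.9 CPM in Notch3-/- mice 1 to 3, the last of which is below control mouse 2 at 81.1 CPM, and Tat and Hpd were at 0 in control mouse 4. The part of this signal in the values of the immediate early genes was not tested.

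No immediate early gene was called between genotypes, as was the case for nearly every gene. Called means an FDR under 0.05 and a fold change of at least 1.5 in edgeR's quasi-likelihood test, and 0 of the 9 tested members met it, against 0.00698% of all 14324 genes tested, which is Notch3 alone, so the count of 0 is at the background. Without Notch3-/- mouse 3, 936 of 15008 genes and 0 members were called, and with DESeq2 300 of 14324 genes and 0 members, which for 9 genes is near the background too. At an unadjusted p under 0.05 there were 0 members higher, against 7.34% of all genes, and 0 members lower, against 3.05%. The genotypes overlapped in each tested member, and 4.57% of all genes were higher in every Notch3-/- mouse than in every control mouse and 3.96% were lower, so this count is also near what these shares give for 9 genes. Of the 9 members, 6 had a positive and 3 a negative log2 fold change, with a median of 0.12 against -0.0028 over all genes tested. This median turned to -0.17 with the hepatocyte mean as a covariate. That mean itself differed between genotypes, so the fit separates the liver signal from genotype poorly. The median of the members was -0.03 in the 5 mice whose labels start with k and -0.017 in technical library 2 alone. These p-values measure the spread between mice. In a bulk sample, fewer cells of a type and less RNA per cell cannot be told apart.

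**Figure D1:**
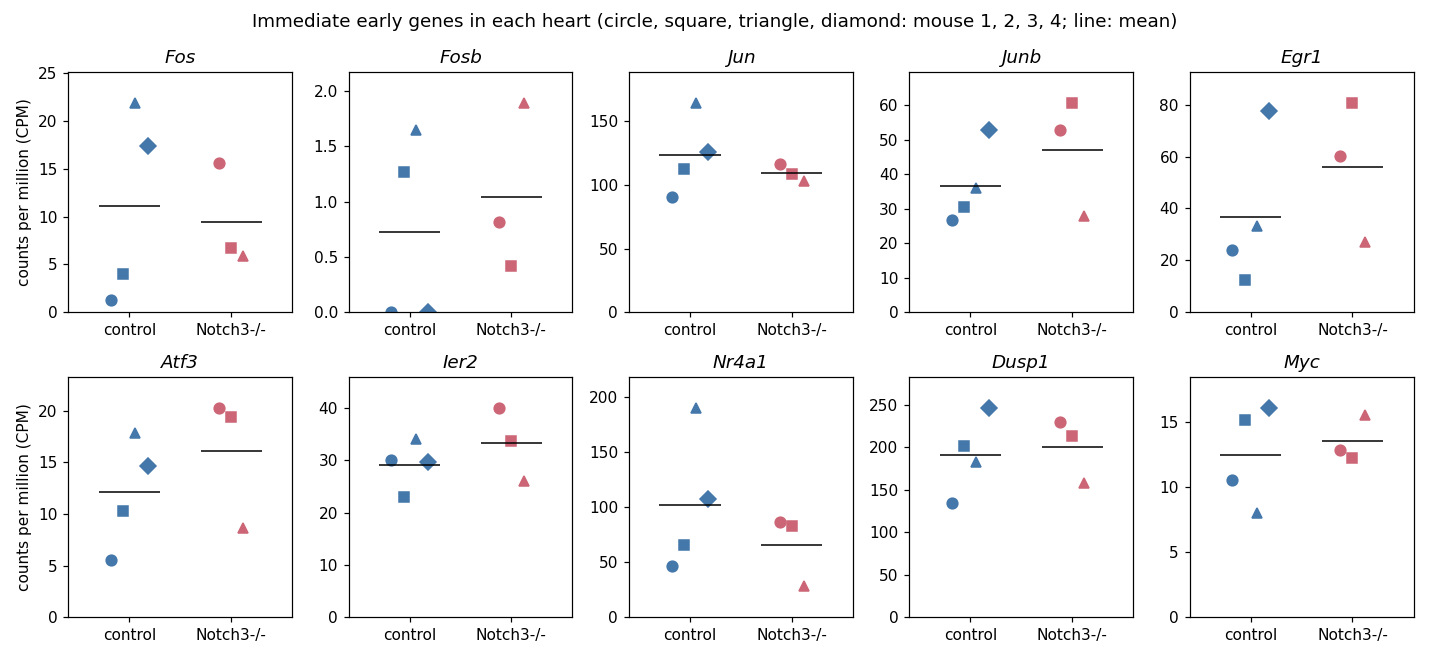
CPM of each of the 10 genes (y axis, linear from 0, a scale for each gene) in 4 control and 3 Notch3-/- hearts, where each symbol is a mouse and the line is the group mean. The groups overlap for each gene, and for Fos, Egr1 and Nr4a1 mice of the same genotype lie far apart, as for Fos at 1.32 and 21.9 CPM in control mice.

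The AP-1 factors are dimers of Fos and Jun family proteins. Fos (ENSMUSG00000021250, chr12:85473890-85477273) was at 1.32, 4.00, 21.9 and 17.4 CPM in control hearts and at 15.6, 6.73 and 5.86 CPM in Notch3-/- hearts. Control mice 3 and 4 and Notch3-/- mouse 1 were high, control mice 1 and 2 were low, and the genotypes overlapped. The log2 fold change was -0.27 with a 95% interval from -1.93 to 1.40 and an FDR of 0.935 from edgeR. Its direction turned without control mouse 3, to 0.31, and without control mouse 4, to 0.0068. Jun (ENSMUSG00000052684, chr4:95049034-95052222), the usual partner of Fos, had 90.2, 113, 164 and 126 CPM in control mice and 116, 109 and 103 CPM in Notch3-/- mice. The Notch3-/- values lay inside the control range, and the log2 fold change was -0.17 (SE 0.19, edgeR FDR 0.799), or -0.016 without control mouse 3 and -0.30 without control mouse 1. Junos, an antisense gene sharing 689 bases with Jun, had 411 counts over all mice, and since the strand used in counting is not stated, reads of the pair cannot be told apart.

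Junb (ENSMUSG00000052837, chr8:84974484-84978718), an AP-1 factor that can dampen Jun activity, was at 26.7, 30.6, 36.0 and 52.8 CPM in control mice and at 52.7, 60.6 and 28.0 CPM in Notch3-/- mice. Notch3-/- mouse 3 was near the low control mice, and the other Notch3-/- mice were near control mouse 4. The log2 fold change was 0.37 (SE 0.30, edgeR FDR 0.708), and it was 0.14 without Notch3-/- mouse 2 and 0.63 without Notch3-/- mouse 3 (edgeR FDR 0.257). Junb shares 351 bases with Prdx2 on the opposite strand, which had 8756 counts against 1166 for Junb. Atf3 (ENSMUSG00000026628, chr1:191170296-191218039), a stress factor that pairs with Jun, was at 5.60, 10.3, 17.9 and 14.7 CPM in control mice and at 20.2, 19.4 and 8.70 CPM in Notch3-/- mice. Here too Notch3-/- mouse 3 was low and the other Notch3-/- mice were high, with a log2 fold change of 0.39 (SE 0.41, edgeR FDR 0.786). It was 0.16 without control mouse 1 and 0.69 without Notch3-/- mouse 3 (edgeR FDR 0.437). Without Notch3-/- mouse 3 the genotypes did not overlap for Atf3. The share of all genes without overlap was not counted in that setting, so this is not read as a result. Fosb (ENSMUSG00000003545, chr7:19302696-19310051) had 28 counts over all mice and did not pass the filter. Its counts were 0, 6, 7 and 0 in control hearts and 3, 2 and 10 in Notch3-/- hearts, and the 10 counts of Notch3-/- mouse 3 came from a single technical library. Tested with every gene of at least 1 count, its log2 fold change was 0.39 (SE 0.97, edgeR FDR 0.912).

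Egr1, Nr4a1 and Myc are transcription factors outside the AP-1 family. Egr1 (ENSMUSG00000038418, chr18:34859823-34864984), a zinc finger factor, was at 24.0, 12.2, 33.4 and 77.5 CPM in control mice and at 60.4, 80.6 and 27.2 CPM in Notch3-/- mice. Control mouse 4 was as high as the upper Notch3-/- mice. The log2 fold change was 0.62, with a 95% interval from -0.60 to 1.84 and an FDR of 0.736 from edgeR, and it was 1.27 without control mouse 4 (edgeR FDR 0.485) and 0.26 without Notch3-/- mouse 2. Nr4a1 (ENSMUSG00000023034, chr15:101254269-101274795), an orphan nuclear receptor, had 47.1, 65.8, 190 and 107 CPM in control mice and 86.9, 83.1 and 28.2 CPM in Notch3-/- mice. Control mouse 3 stood highest and Notch3-/- mouse 3 lowest. Its log2 fold change of -0.64 (SE 0.50, edgeR FDR 0.694) was the lowest of the members, and it was -0.17 without control mouse 3. Myc (ENSMUSG00000022346, chr15:61985391-61990374), a regulator of growth and ribosome production, kept within 8.00 to 16.0 CPM in control mice and 12.2 to 15.5 CPM in Notch3-/- mice, with a log2 fold change of 0.12 (SE 0.29, edgeR FDR 0.918) that was -0.054 without control mouse 3.

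Dusp1 and Ier2 have other roles. Dusp1 (ENSMUSG00000024190, chr17:26505590-26562128), the MAP kinase phosphatase, was at 134, 201, 182 and 245 CPM in control mice and at 230, 213 and 158 CPM in Notch3-/- mice. On the log2 scale the fold change was 0.07 (SE 0.21, edgeR FDR 0.939), and the Notch3-/- values lay inside the control range. This turned to -0.065 without control mouse 1 and to -0.040 without Notch3-/- mouse 1. Dusp1 is on the chromosome of Notch3, 5.56 Mb from it, and shares 640 bases with Ergic1 on the opposite strand. Ier2 (ENSMUSG00000053560, chr8:84661331-84662852), a small nuclear protein, was at 30.0, 23.0, 34.1 and 29.7 CPM in control mice and at 39.9, 33.7 and 26.1 CPM in Notch3-/- mice, which gave a log2 fold change of 0.18 (SE 0.20, edgeR FDR 0.798), or 0.034 without Notch3-/- mouse 1 and 0.33 without Notch3-/- mouse 3.

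**Figure D2:**
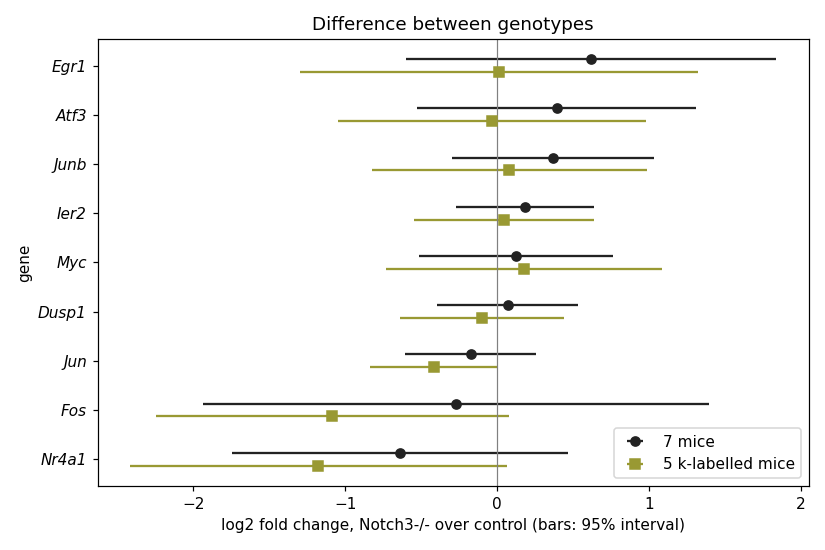
Log2 fold change of the 9 tested genes (x axis, Notch3-/- over control) with 95% intervals, for all 7 mice (circles) and for the 5 mice with k labels (squares). All 9 intervals over 7 mice include 0, and Nr4a1, Fos and Jun lie farther below 0 in the k-labelled mice, at -1.18, -1.08 and -0.41.

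Control mice 1 and 2 carry labels that start with X and the other 5 mice labels that start with k. Within the k-labelled mice, Fos, Jun and Nr4a1 were lower in each of the 3 Notch3-/- mice than in control mice 3 and 4. So 3 of the 9 members were lower without overlap, against 11.1% of all genes in the same 5 mice, and 0 were higher, against 12.4%. Their log2 fold changes there were -1.08 for Fos, -0.41 for Jun and -1.18 for Nr4a1, each with an FDR of 0.734 from edgeR, so none was called. Atf3 and Dusp1 turned direction in these mice, to -0.03 and -0.10, and Egr1, Junb and Ier2 were at 0.01, 0.08 and 0.05. With the mean of the hepatocyte markers as a covariate, Nr4a1 was at -1.55, Fos at -0.0092 and Myc at 0.23. Junb, Egr1, Atf3, Ier2 and Dusp1 turned to -0.38, -0.17, -0.37, -0.06 and -0.30, and no member was called. The hepatocyte markers themselves differed between genotypes, with a median log2 fold change of 7.28. So this fit separates the liver signal from genotype poorly, and its values are not read as genotype effects freed of that signal.

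Levels of different genes were compared per kilobase of exon. Dusp1 was highest at a mean of 58.9 CPM per kb over the 7 mice, followed by Jun at 36.8, Nr4a1 at 24.7, Ier2 at 20.3, Junb at 17.8, Egr1 at 10.0, Atf3 at 6.42, Myc at 4.75, Fos at 4.42 and Fosb at 0.138. Dusp1 exceeded Jun, Junb exceeded Egr1, and Fos exceeded Fosb in 7 of 7 mice. Neighbours such as Nr4a1 and Ier2, Atf3 and Myc, or Myc and Fos kept this order in only 4 of 7 mice, so they do not differ beyond the spread between mice.

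The spread between hearts of a genotype was wide for some members. Fos had a within-genotype SD of log2 CPM of 1.41, higher than or equal to 98.7% of all genes tested. Egr1 was at 0.98 (96.3%), Nr4a1 at 0.89 (95.2%) and Atf3 at 0.68 (90.8%). Jun at 0.28 (49.2%) and Ier2 at 0.26 (44.9%) were near the middle of all genes. Each member was also ranked among genes of its own level (1 of 10 equal groups by mean CPM). There, Fos was above 98.8% of the genes, Egr1 above 97.8%, Nr4a1 above 97.2%, Atf3 above 93%, Junb above 91.9%, Dusp1 above 91.5% and Jun above 79.9%, and Myc (56.5%) and Ier2 (52.4%) were near the middle. For 6 members, Fos, Jun, Junb, Egr1, Atf3 and Nr4a1, both X-labelled control mice were below both k-labelled ones, against 17.2% of all genes. With these label groups taken apart, a choice made after seeing the data, the SD was 0.70 for Fos (91%), 0.78 for Egr1 (93.2%), 0.73 for Nr4a1 (91.8%), 0.56 for Atf3 (84.8%) and 0.19 for Jun (23.5%), and the median over the members was 0.46 against 0.28 over all genes. With all controls as 1 group, the median SD over the 9 members was 0.49 against 0.29 over all genes tested, and 7 of 9 members were above the latter. The SD between technical libraries of a mouse had a median of 0.32 for the members and 0.40 for all genes. Those are values of single libraries. For a mean of the 3 libraries, which is nearer to the summed counts of a mouse, the technical SD was 0.44 for Fos, 0.20 for Egr1, 0.18 for Nr4a1, 0.37 for Atf3, 0.21 for Myc and 0.18 for Ier2.

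**Figure D3:**
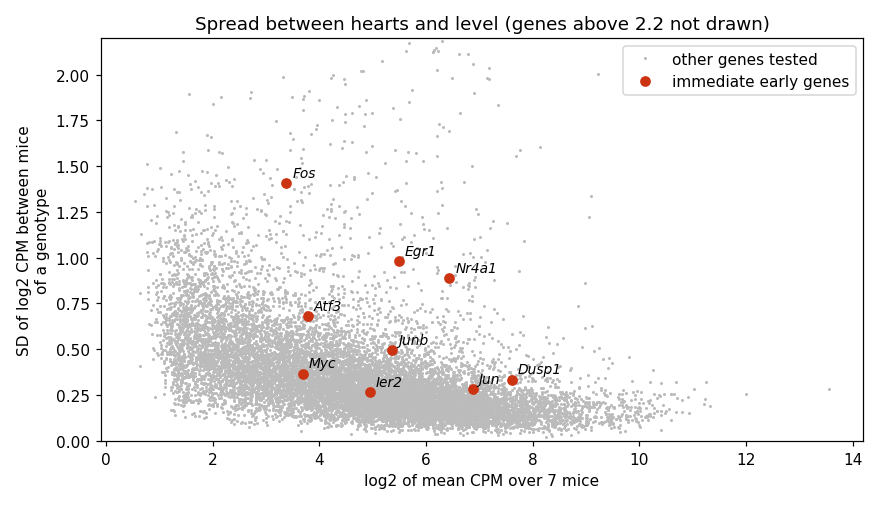
SD of log2 CPM between mice of a genotype, X- and k-labelled controls pooled (y axis) against the log2 of the mean CPM over 7 mice (x axis), with the 9 immediate early genes in red and the other genes tested in grey. Fos (1.41), Egr1 (0.98) and Nr4a1 (0.89) lie above most genes of their level, while Myc and Ier2 lie near the middle.

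Values of the members were compared heart by heart. The mean log2 CPM of the 9 members was 4.49, 4.81, 5.51 and 5.64 in the control hearts and 5.59, 5.45 and 4.78 in the Notch3-/- hearts. Control mouse 1 was the lowest for 5 members, and control mouse 3 was the highest for 3. High and low hearts were found in both genotypes: control mice 3 and 4 and Notch3-/- mice 1 and 2 were high, control mice 1 and 2 and Notch3-/- mouse 3 low. Control mice 1 and 2 are the X-labelled mice, so among the k-labelled mice Notch3-/- mouse 3 alone was low. Pairs were not tested within the 5 k-labelled mice. There, 29 of the 36 pairs had r above 0 with a median of 0.43, against 49.9% and -0.00091 over all pairs of genes. In these mice r was 0.97 for Junb and Egr1 and 0.86 for Jun and Nr4a1. It was 0.17 for Fos and Junb, 0.10 for Fos and Egr1, 0.05 for Jun and Dusp1 and -0.09 for Jun and Junb. The lowest values were those of Myc with Jun (-0.79) and with Nr4a1 (-0.70). The summed hepatocyte markers were at 57.3, 172, 12.9 and 27.4 CPM in the control mice and 7331, 13319 and 160 CPM in the Notch3-/- mice, and their part was not tested.

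Of the 36 pairs of members, 31 had a Pearson r above 0 over the 7 mice, with a median of 0.56, and 0.60 after the genotype mean was taken off each value. Over all 102581326 pairs of genes tested, 49.9% had r above 0 and the median was -0.0013. Pairs share genes and mice, so this is a description without a test. By Pearson r, Junb and Egr1 were most alike, with r = 0.89 and Spearman's rho = 0.89 (two-sided exact permutation p = 0.0145 and 0.0123, adjusted over the 36 pairs 0.131 and 0.111), and r was 0.75 without the 2 mice farthest from the median of Junb. By rho, Jun and Nr4a1 were most alike, with r = 0.86 and rho = 0.93 (exact permutation p = 0.0200 and 0.00675, adjusted 0.131 and 0.111), and r was 0.85 without the 2 mice farthest from the median of Jun. After the genotype mean was taken off, Atf3 and Nr4a1 had the highest r, 0.96, but as measured their r was 0.72, and 0.41 without the 2 mice farthest from the median of Atf3. Fos was nearest to Jun (r = 0.85), Atf3 to Junb (0.84), Dusp1 to Junb (0.84) and Ier2 to Egr1 (0.72), and without the 2 mice farthest from the median of Fos, Junb, Junb and Egr1 these were 0.73, 0.88, 0.83 and 0.43. The nearest member of Myc was Dusp1 at r = 0.36, and its r with Nr4a1 was -0.53. Without the 2 mice farthest from the median of Dusp1 and of Nr4a1 these were 0.76 and 0.68, so these values of Myc rest on those mice. By the exact permutation test, 7 pairs were under an unadjusted p of 0.05 for Pearson r and 6 for Spearman's rho. For either, 0 were under an adjusted p of 0.05. Summed over libraries the median r was 0.56, but it was 0.27, 0.65 and 0.29 in technical libraries 1, 2 and 3 alone.

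**Figure D4:**
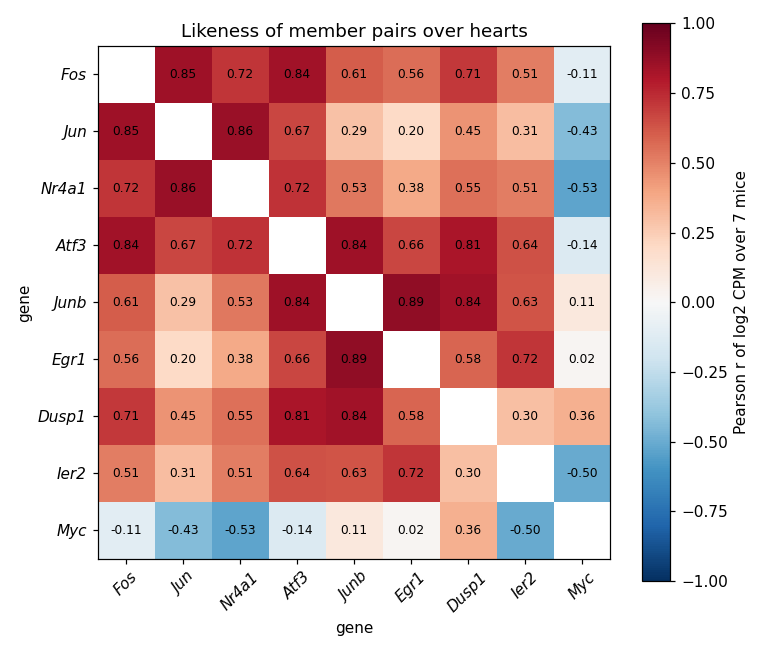
Pearson r of log2 CPM over 7 mice for each of the 36 pairs of 9 genes, as color and number. Junb and Egr1 (0.89) and Jun and Nr4a1 (0.86) are the most alike, and Myc is below 0 with 5 of the others.

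The promoters of members were searched for TGACG, the core letters of the cyclic AMP response element. The part of these letters in the likeness of members was not tested. RefSeq promoters (GRCm38.p6, from 250 bases before to 50 after a start) were found for 7 members, Fos, Fosb, Jun, Junb, Atf3, Nr4a1 and Dusp1. TGACG on either strand was found in 6 of these 7, all but Jun, against 20.8% of 32851 promoters. The palindrome TGACGTCA, which contains TGACG, was in 1 of 7, Dusp1, against 1.79%. TGACTCA, the AP-1 letters, was in 0 of 7 against 5.20%, and TATAA in 2 of 7 against 24.9%. A match is a description of letters and not a binding site. The stretches around the match nearest the start (for Dusp1, around the palindrome) are shown with the match in capitals, 5' to 3' on the strand of the gene, CGTCA being TGACG read on the other strand.
Fos, chr12:85473804-85473848, plus strand: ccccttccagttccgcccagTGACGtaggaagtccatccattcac
Fosb, chr7:19310081-19310125, minus strand: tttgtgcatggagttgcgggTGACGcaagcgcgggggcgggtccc
Junb, chr8:84978830-84978874, minus strand: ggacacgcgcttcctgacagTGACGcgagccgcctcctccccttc
Atf3, chr1:191183334-191183360, minus strand: ggaagctattaatagcattaCGTCAgc
Nr4a1, chr15:101266786-101266830, plus strand: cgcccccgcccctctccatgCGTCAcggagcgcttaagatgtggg
Dusp1, chr17:26508588-26508635, minus strand: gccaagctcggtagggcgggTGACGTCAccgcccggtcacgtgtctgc
Nr4a1 held 4 matches before its start, Fos held 2 and Dusp1 held 3, of which a pair overlap in the palindrome.

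Among 10719 other genes with a mean of at least 10 CPM, the 10 whose log2 CPM over the 7 mice was most like the mean of the 9 members were Tm2d3 (r = 0.98), Pwwp2b (0.96), Stox2 (0.94), Ankrd61 (0.94), March5 (0.94), Pcdh12 (0.94), Qpctl (0.93), Snrpa (0.92), Slc15a4 (0.92) and Gm20537 (0.91). Tm2d3 was at 22.1, 23.8, 32.7 and 36.1 CPM in control mice and at 32.8, 34.7 and 23.3 CPM in Notch3-/- mice. They were picked for this likeness, so no p is given.

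The other genes of the response were described in the same way, each count beside the 7.34% of all genes that were higher and the 3.05% that were lower at an unadjusted p under 0.05. Of 13 other early transcription factors tested, 0 were higher and 1 was lower at this threshold, near these shares for so few genes, and the median log2 difference was -0.12. That gene was Klf2, a factor of endothelial cells under flow, at 13.2, 30.1, 29.9 and 22.0 CPM in control mice and 15.6, 14.3 and 11.5 CPM in Notch3-/- mice (log2 fold change -0.80, edgeR FDR 0.396). Bhlhe40, a repressor of the clock, was the most abundant at 216.7, 161, 131 and 82.2 CPM in control mice and 198, 252 and 83.6 CPM in Notch3-/- mice. Of 23 other early regulators, 2 were higher and 1 lower, with a median of -0.18. Errfi1, an inhibitor of EGF receptor signaling, was at 33.3, 70.2, 49.2 and 32.4 CPM in control mice and 121, 491 and 20.2 CPM in Notch3-/- mice, so it was high in the mice with the liver signal. Dusp6, a phosphatase of ERK, was at 74.3, 97.6 and 39.1 CPM in Notch3-/- mice against 39.2 to 51.5 in control mice, and was high in the same mice. Rhob, a small GTPase, was at 34.7, 30.7 and 43.7 CPM in Notch3-/- mice against 39.8 to 64.7 in control mice. The FDR of Errfi1, Dusp6 and Rhob was 0.359, 0.453 and 0.357 from edgeR, and Ccn1, a matrix protein, was the most abundant gene of the list.

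Upstream of the members, 2 of 19 kinases were higher at an unadjusted p under 0.05, against 7.34% of all genes, and 0 were lower, against 3.05%, which is near the background, and the median log2 difference was -0.01. Rps6ka1, the kinase RSK1 downstream of ERK, was at 7.90, 10.1, 8.00 and 6.01 CPM in control mice and 14.5, 21.5 and 13.6 CPM in Notch3-/- mice, without overlap (log2 fold change 1.03, edgeR FDR 0.207). Mapk8, which encodes JNK1, was at 15.0 to 22.1 CPM in control mice and 24.9, 26.5 and 25.2 CPM in Notch3-/- mice, also without overlap (FDR 0.478 from edgeR), as were 4.57% of all genes in this direction. Of 16 upstream transcription factors, 1 was higher and 0 lower, with a median of 0.03. That was Mrtfa, a coactivator of SRF, at 36.9, 39.5 and 25.5 CPM in Notch3-/- mice against 22.6 to 26.7 in control mice (FDR 0.426 from edgeR), and Mef2a was the most abundant. Of 13 dimer partners and repressors, 1 was higher and 0 lower, with a median of -0.01: Atf2, a partner of Jun, at 92.1, 81.4 and 92.8 CPM in Notch3-/- mice against 63.8 to 83.3 in control mice (FDR 0.477 from edgeR). Atf7 was the most abundant.

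Genes that follow the early response and other stress genes were counted at the same threshold, past which 7.34% of all genes were higher and 3.05% lower. Of 16 secondary response genes, 2 were higher and 0 lower, with a median of 0.11. Timp1, an inhibitor of matrix proteases, was at 2.53 to 4.34 CPM in control mice and 7.92, 7.78 and 5.11 CPM in Notch3-/- mice, and Cxcl1, a chemokine, at 0.334 to 3.06 CPM and 4.37, 5.26 and 3.21 CPM (FDR 0.323 and 0.426 from edgeR). Ncl, a nucleolar protein, was the most abundant. Of 9 inducible heat shock genes 0 were past the threshold, with a median of -0.06, and Bag3 was the most abundant. Of 11 hypoxia genes 1 was higher, Egln3, at 139, 85.2 and 90.4 CPM in Notch3-/- mice against at most 94.9 in control mice (FDR 0.422 from edgeR), with a median of -0.05 over the list, and Ldha was the most abundant.

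Markers of cell types that heart tissue can hold were compared as well. Of 10 vascular smooth muscle and pericyte markers tested, 4 were lower at an unadjusted p under 0.05, against 3.05% of all genes, with a median of -0.21: Myh11, at 39.8, 20.4, 10.6 and 19.7 CPM in control mice and 3.28, 5.05 and 3.59 CPM in Notch3-/- mice, and Tagln, Rgs5 and Cspg4 (FDR 0.118, 0.396, 0.249 and 0.339 from edgeR). Of 10 fibroblast markers 4 were higher, against 7.34% of all genes, and 1 lower, with a median of 0.07, the higher ones being Col1a1, Col1a2, Col3a1 and Postn and the lower one Dcn, and Gsn was the most abundant. Of 10 macrophage markers 1 was higher, Mrc1, with a median of 0.16, and Csf1r was the most abundant. Of 5 erythroid markers 2 were lower, Hba-a1 and Hbb-bs, with a median of -0.48. All 10 cardiomyocyte markers had a negative log2 fold change, from -0.28 to -0.07 (49.6% of all genes had a positive one). The 10 cardiomyocyte, 10 endothelial, 2 neutrophil and 1 adipocyte markers tested had 0 past the threshold in either direction, with medians of -0.24, 0.04, 0.15 and -0.12, and the most abundant of these lists were Ttn, Eng, Csf3r and Plin4. The part of these cell types in the values of the members was not tested.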

How the data were processed

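The authors deposited counts, whole numbers of reads per Ensembl gene that were not normalized, for 21 libraries of 7 mice, made from single reads of 51 bases after 22 cycles of PCR. The submitters' processing notes name CASAVA and mm10; the aligner, counting program and strand are not given in the sources used here. The table has 46517 gene rows and 92 ERCC rows, which held 34 counts and were left out, and 0 columns were not used. Reads carry no molecular identifiers, so the precision from depth covers counting error only.

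The 3 technical libraries of a mouse were summed. In R 4.3.3, edgeR 4.0.16 was run with filterByExpr by genotype, TMM factors and glmQLFTest on genotype, with no covariate, adjusted by Benjamini-Hochberg over 14324 genes. Log2 CPM used a prior count of 2. SE is the fold change over the root of F, and 95% intervals use the degrees of freedom of the fit. Symbols, positions and exon lengths are from GENCODE vM21 (GRCm38), which held 46005 of the identifiers. Pairs of members were tested by an exact permutation test over all 5040 pairings of 7 mice, two-sided. Scripts were tested on simulated data. DESeq2 1.42.0, limma 3.58.1 and other settings, 20 in all, were alternatives.

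The named genes are Notch3, the members, the most abundant gene and up to 5 genes of the smallest p past an unadjusted p under 0.05 from each list, and the 10 genes most like the mean of the members. A gene that this rule selects is not reported here. The members and lists were chosen with earlier results of these data known.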

Additional observations from a re-analysis of the deposited data

Results flagged for a closer look

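In the 4 control mice, the gap of the most distant mouse to its nearest neighbour, over the whole range, was looked at for 64 genes, those of the rule for named genes, and it passed Dixon's 95% limit for 2 of them, while chance passes about 1 in 20 groups. For Col1a1 the ratio was 0.988, with control mouse 1 at 167 CPM and the others at 126 to 127 CPM. For Mrc1 it was 0.849, with control mouse 1 at 44.1 CPM and the others at 33.7 to 35.3 CPM. No member passed it. The 3 Notch3-/- mice are too few for this test.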

How the results depend on the processing

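No member was called under any of the 20 alternatives. The count of genes called over the whole table was 300 with DESeq2, 639 with every gene of at least 1 count, 0 in the 5 k-labelled mice, 0 with the hepatocyte covariate, 65 with limma-voom on 21 libraries, and 48, 39 and 77 in technical libraries 1, 2 and 3 alone. It ranged from 1 to 936 with a mouse left out, and was 936 without Notch3-/- mouse 3. With the technical replicate number as a block in limma-voom, 62 genes were called and Fos was at 0.23. In this fit 1 member, Egr1, was past an unadjusted p under 0.05, against 8.16% of all genes higher and 4.74% lower. Correlations of the mean deviations of same-numbered libraries between the genotypes were -0.06, -0.02 and -0.04, and unlike-numbered ones reached 0.06. So no likeness by number was seen between genotypes. Whether same-numbered libraries shared a preparation was not tested. Members past an unadjusted p under 0.05 are given against the shares of all genes higher and lower at this threshold. There were 2 with limma-voom (Egr1, Nr4a1), against 8.25% and 5.01%. That fit used 21 libraries, with an estimated correlation of 0.15 between libraries of a mouse. Technical library 1 had 1 (Egr1), against 4.59% and 2.03%, and technical library 3 had 1 (Nr4a1), against 6.17% and 2.66%. With a mouse left out there were 0 to 1. These were Egr1 without control mouse 4 (6.07% and 2.49%) and Junb without Notch3-/- mouse 3 (11.6% and 4.66%). For 9 genes these counts are near the shares. Members without overlap numbered 3 in the k-labelled mice, all lower, against 11.1% of all genes lower and 12.4% higher. They numbered 0 to 1 with a mouse left out. The share of all genes was not counted there, so Atf3 without Notch3-/- mouse 3 is not read as a result. The hepatocyte covariate leaves CPM as they are, so it gave no such count. It also differs between genotypes, so its fit separates the liver signal from genotype poorly. The median log2 fold change ranged from 0.03 to 0.26 with a mouse left out, but turned to -0.17 with the hepatocyte covariate, -0.03 in the k-labelled mice and -0.017 in technical library 2.

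Directions turned for Fos (0.21 with limma-voom), Atf3 (-0.031 in the k-labelled mice, -0.58 in technical library 3), Dusp1 (-0.10 in the k-labelled mice, -0.017 in technical library 2) and Myc (-0.15 in technical library 2), and with the hepatocyte covariate for Junb (-0.38), Egr1 (-0.17), Atf3 (-0.37), Ier2 (-0.056) and Dusp1 (-0.30), while Nr4a1 went to -1.55 with it. With a mouse left out, Fos ranged from -0.82 to 0.31, Dusp1 from -0.065 to 0.22 and Myc from -0.054 to 0.26. The median r of the pairs was 0.27, 0.65 and 0.29 in technical libraries 1, 2 and 3 and 0.46 to 0.69 with a mouse left out. The median SD was 0.59 in technical library 1 and 0.39 to 0.55 with a mouse left out; taking the label groups of the controls apart, chosen after seeing the data, gave 0.46. The cause of these changes was not tested.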
